A study of Mus musculus with 6 samples.

Results

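Genes of the cell division cycle were followed by phase with RNA sequencing of the mesonephros of male E12.5 mouse embryos. The set holds 45 genes that were chosen by name from a list: 22 genes of DNA replication, whose transcripts peak around the G1/S transition, and 23 mitotic genes, whose transcripts peak in G2/M. The choice was made with earlier results of these data known. All 45 were found among the 20033 genes of the deposited table, and all 45 passed the filter of at least 1 TPM (a level per transcript length that is scaled to the same total in each library) in at least 3 libraries. The study compared 3 control embryos with 3 embryos carrying a global knockout of Wnt9b, which encodes a Wnt ligand made by duct epithelium. The controls are heterozygous by one label and wild type (Wnt9b+/+) by another, so they are called controls here. Wnt9b itself was at 24.9, 26.4 and 34.0 TPM in controls 1 to 3 and at 23.4, 19.2 and 19.0 TPM in knockouts 1 to 3, lower without overlap (adjusted p from limma of 0.266); the labels do not say which exons the knockout removes. No treatment is given for either group, and litters and batches are not given. The mesonephros, the transient embryonic kidney with its tubules, mesenchyme and Wolffian duct, is a mixed tissue, so each value is a mixture over cell types.

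A dividing cell copies its DNA in S phase and separates the copies in mitosis. Before S phase, cyclin E and its kinase release E2F factors from the retinoblastoma protein, and E2F factors then drive genes for the replicative helicase, polymerases and nucleotide supply. Mitotic genes are kept low in resting cells by the DREAM complex and are switched on later by B-Myb and Foxm1, largely through promoter elements called CHR (cell cycle genes homology region) and CCAAT box. Mitotic transcripts build up only in cells that approach division, and levels of both groups in a whole tissue usually follow how many of its cells are cycling. In bulk RNA a larger share of cycling cells and more of these transcripts per cycling cell cannot be told apart.

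Promoter sequences show how the 2 phases differ in ways that the choice of genes did not use. RefSeq promoters (GRCm38.p6, 250 bases before to 50 after the start) were at hand for 36 of the 45 genes, 18 of each phase; Mcm4, Ccne2, Gins1, Gins2, Ccna2, Aurkb, Kif20a, Tpx2 and Foxm1 are named only. The motifs searched on both strands were TTTNNCGC with C or G at each N for E2F, TTTGAA or TTCGAA for CHR, and CCAAT; none of these contains another, though matches of the E2F motif on opposite strands can overlap, as in Mcm5 and Mcm6. Stretches of 6 promoters upstream of the start are shown, 5′ to 3′ on the gene's strand, with every match in capitals (a reverse-strand match reads as its reverse complement, such as ATTGG for CCAAT or TTCAAA for TTTGAA). The first 4 belong to mitotic genes, of which Cdk1, Cdc20 and Ube2c have some of the largest differences between the groups, and the last 2 to helicase genes with E2F matches. The CHR matches of Ccnb2 lie outside the stretch shown.
Cdk1 (chr10:69352913-69353062, minus strand): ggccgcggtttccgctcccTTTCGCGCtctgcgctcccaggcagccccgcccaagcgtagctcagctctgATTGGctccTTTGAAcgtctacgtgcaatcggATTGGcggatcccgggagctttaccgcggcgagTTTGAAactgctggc
Cdc20 (chr4:118437344-118437463, minus strand): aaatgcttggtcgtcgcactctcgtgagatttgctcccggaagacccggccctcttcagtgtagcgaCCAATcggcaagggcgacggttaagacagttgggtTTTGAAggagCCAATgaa
Ube2c (chr2:164769809-164769928, plus strand): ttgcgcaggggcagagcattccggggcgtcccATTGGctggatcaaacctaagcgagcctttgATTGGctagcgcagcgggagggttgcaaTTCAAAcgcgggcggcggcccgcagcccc
Ccnb2 (chr9:70421555-70421674, minus strand): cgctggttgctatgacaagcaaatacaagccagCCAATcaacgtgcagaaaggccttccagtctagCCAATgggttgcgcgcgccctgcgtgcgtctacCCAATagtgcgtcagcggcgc
Mcm6 (chr1:128359706-128359835, minus strand): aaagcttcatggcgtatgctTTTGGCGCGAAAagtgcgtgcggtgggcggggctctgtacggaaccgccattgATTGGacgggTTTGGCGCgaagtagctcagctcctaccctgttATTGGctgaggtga
Mcm5 (chr8:75109339-75109508, plus strand): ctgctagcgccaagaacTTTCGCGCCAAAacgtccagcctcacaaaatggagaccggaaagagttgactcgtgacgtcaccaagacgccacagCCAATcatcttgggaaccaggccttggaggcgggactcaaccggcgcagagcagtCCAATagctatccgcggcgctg

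A CHR match lay in 14 of 18 mitotic promoters (77.8%) and in 4 of 20 promoters of replication genes (20.0%; E2f2 and Mcm7 have a pair of promoters each), against 19.2% of all 32851 promoters of the table. In 13 of those 14 mitotic promoters the nearest CHR match began within 50 bases of the start. At least 2 CCAAT boxes were found in 11 of 18 mitotic promoters (61.1%), in 8 of 20 replication promoters (40.0%) and in 11.7% of all promoters. The order was the other way round for the E2F motif, found in 8 of 20 replication promoters (40.0%), in 1 of 18 mitotic promoters (5.56%, that of Cdk1) and in 2.26% of all. Such matches describe letters in a window and are not measured binding sites. Within the mitotic group, the 11 genes with at least 2 CCAAT boxes had a median log2 difference between knockout and control of 0.23 (from 0.065 to 0.40), and the 7 with fewer had one of 0.17 (from 0.087 to 0.25). The same split of the replication genes ran the other way, with a median of 0.091 for the 8 genes with at least 2 CCAAT boxes and 0.17 for the 10 with fewer. The 14 mitotic genes with a CHR match had a median of 0.20 and the 4 without one had 0.19. The replication genes with and without the E2F motif had nearly the same median, 0.099 for 8 genes and 0.11 for 10. None of these motif splits was tested.

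In the knockout mesonephroi the mitotic genes were measured slightly above control as a body, and the replication genes less so. All 23 mitotic members had a positive log2 difference (knockout minus control on the log2(TPM + 1) scale), from 0.065 for Cenpf to 0.40 for Ube2c, with a median of 0.19. Of the 22 replication members 19 were positive, from -0.026 for Pcna to 0.32 for Ccne1, with a median of 0.10. Over all 17577 genes tested the median was -0.0075, and 48.2% of genes were positive. No member passed the test: 0 of 22 replication genes and 0 of 23 mitotic genes were called higher or lower by limma at an adjusted p under 0.05, a test that called 0.131% of all genes higher and 0.313% lower. The counts below give the same members under looser or other rules.

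**Figure D1:**
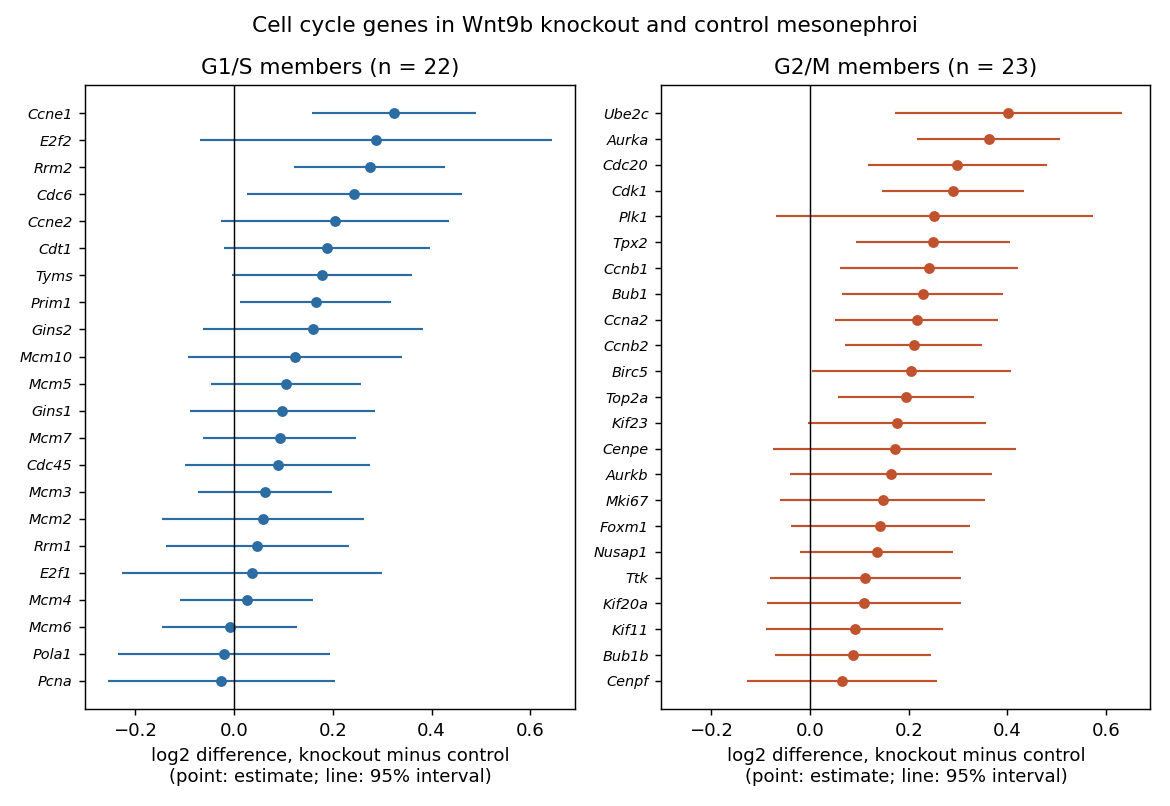
Log2 difference (knockout minus control, x axis) of each of the 22 G1/S members (left) and 23 G2/M members (right), ordered by size; points are limma estimates and lines their 95% intervals over 3 against 3 embryos. All 23 mitotic points lie right of 0, and the intervals of 11 of them and of 4 replication genes exclude 0 before any adjustment.

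At an unadjusted p under 0.05, limma marked 11 of 23 mitotic and 4 of 22 replication members higher and none lower, against 5.35% of all tested genes higher and 5.92% lower. In the authors' deposited table, 6 mitotic genes (Aurka, Ube2c, Cdk1, Cdc20, Tpx2 and Top2a) and 2 replication genes (Rrm2 and Ccne1) are higher at an adjusted p under 0.05 and no member is lower, where the table marks 1.38% of 18858 genes higher and 2.17% lower. With limma-voom on whole reads recovered from the TPM values, 1 mitotic member was called, Aurka, and 0 replication members, against 0.489% of all genes higher and 1.19% lower. The 3 knockout values lay above all 3 control values for 13 of 23 mitotic and 7 of 22 replication genes and below them for none, against 8.14% and 8.49% of all tested genes. Members of a phase varied together between libraries, so these counts do not stand for as many separate observations. The members were also chosen with earlier results of these data known, so their excess over the shares of all genes is not separate evidence.

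**Figure D2:**
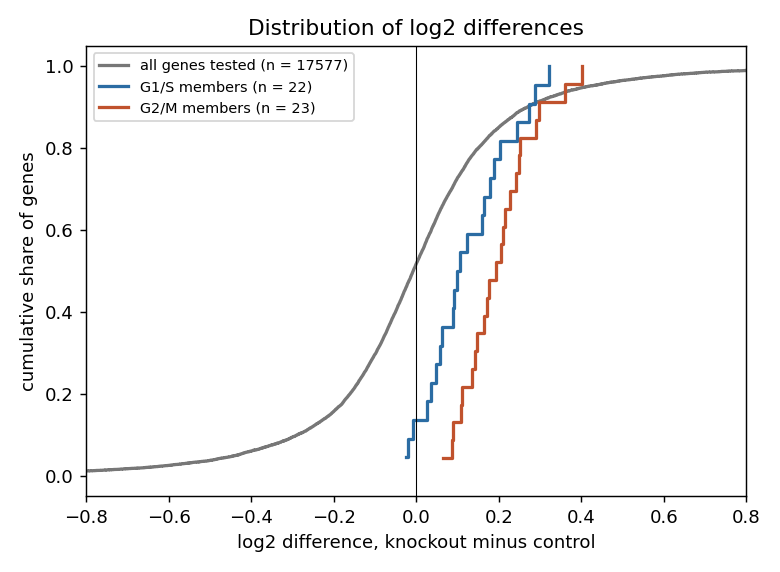
Cumulative share of genes (y axis) by log2 difference, knockout minus control (x axis), for all 17577 genes tested (grey), the 22 G1/S members (blue) and the 23 G2/M members (orange). Both member curves lie right of the grey one at the middle, with medians of 0.10 and 0.19 against -0.0075, while the largest member difference, 0.40, is within the range of the grey curve.

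Among the replication genes, the 6 subunits of the Mcm2-7 helicase, the motor that opens DNA ahead of the fork, included the 3 members of highest level and differed little between the groups. Mcm4 was measured at 226, 226 and 235 TPM in controls 1 to 3 and at 236, 222 and 243 TPM in knockouts 1 to 3. Mcm3 was at 207, 214 and 207 TPM in the controls and at 225, 207 and 225 TPM in the knockouts. Mcm6 was at 202, 209 and 213 TPM in the controls and at 206, 198 and 218 TPM in the knockouts. For these 3 genes the groups overlapped, with knockout 2 lowest of all 6 libraries each time. Mcm2, a further subunit often used as a marker of cells licensed to replicate, was at 90.2, 95.7 and 105.9 TPM in the controls and at 111, 93.1 and 99.7 TPM in the knockouts, again with overlap. Its log2 difference was 0.059 (SE 0.089, with an adjusted p from limma of 0.860), and the unadjusted 95% interval ran from -0.15 to 0.26. Mcm5 and Mcm7 differed by 0.11 and 0.093, the median log2 difference of the 6 subunits was 0.061, and 0 of them had an unadjusted p under 0.05 with limma.

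Factors that load and switch on the helicase showed somewhat larger values, with a median of 0.14 over 6 genes. Cdc6, which loads the helicase onto origins together with Cdt1, ranged from 25.4 to 26.3 TPM in the controls and from 28.7 to 34.5 TPM in the knockouts, a log2 difference of 0.24 (SE 0.095, with an adjusted p from limma of 0.387). Cdt1 reached 89.1 and 88.2 TPM in knockouts 1 and 2 but 73.0 TPM in knockout 3, within the control range of 70.1 to 77.0 TPM. Mcm10, Cdc45 and the GINS subunits Gins1 and Gins2, which complete the active helicase, had log2 differences of 0.12, 0.089, 0.098 and 0.16. At the fork itself, Pcna, the sliding clamp of the polymerases, was at 166, 173 and 204 TPM in the controls and at 185, 158 and 190.4 TPM in the knockouts. Its values overlapped between the groups, with knockout 2 the lowest and control 3 the highest library. Pcna varied more among controls (coefficient of variation 11.2%) than most members, whose median was 3.56% in the replication group. The log2 difference of Pcna was -0.026 (95% interval -0.26 to 0.20). Of the primase and polymerase alpha genes, Prim1 differed by 0.17, with all knockouts above all controls, and Pola1 by -0.020.

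Genes of nucleotide supply and of the cyclin E and E2F step ranged widely, from 0.037 for E2f1 to 0.32 for Ccne1. Ribonucleotide reductase makes deoxyribonucleotides, and Rrm2, its S-phase-limited subunit (ENSMUSG00000020649), was at 140, 143 and 140.2 TPM in the controls and at 186, 164 and 163 TPM in the knockouts. All knockouts lay above all controls, the controls were within 3 TPM of each other, and the log2 difference was 0.27 (SE 0.067, with an adjusted p from limma of 0.162; the authors' deposited table gives 0.0221). Its partner Rrm1, whose protein persists through the cycle, differed by 0.048, and the thymidylate synthase gene Tyms by 0.18. Ccne1 (ENSMUSG00000002068), which encodes cyclin E1, was at 43.0, 43.0 and 45.7 TPM in the controls and at 58.0, 52.5 and 55.1 TPM in the knockouts. This was the largest difference of the group, again without overlap, at 0.32 (SE 0.072, with an adjusted p from limma of 0.129; 0.0249 in the authors' deposited table). Ccne2, for cyclin E2, was at 16.9, 17.0 and 15.9 TPM in the controls and at 18.0, 18.9 and 20.9 TPM in the knockouts, a log2 difference of 0.20 (SE 0.10).

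The activating E2F factors themselves did not show one pattern. E2f1 was at 48.3, 46.3 and 56.8 TPM in the controls and at 59.8, 47.3 and 48.5 TPM in the knockouts, so 1 library stood above the rest in each group. Its log2 difference of 0.037 turned to -0.021 without control 2 and to -0.068 without knockout 1. E2f2 had the lowest level of all members, 7.98, 7.91 and 10.5 TPM in the controls and 9.75, 10.5 and 12.52 TPM in the knockouts. Control 3 lay above knockout 1, so the groups overlapped, and the log2 difference of 0.29 carried a wide 95% interval, from -0.068 to 0.64. As a lower bound on depth, E2f2 rested on 319 to 512 recovered reads per library and Mki67 on 14760 to 20114.

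In the mitotic group, Cdk1, the kinase that drives entry into mitosis, and its cyclin partners came in above control together. Cdk1 (ENSMUSG00000019942) was at 88.1, 94.2 and 87.02 TPM in the controls and at 106, 113 and 111 TPM in the knockouts. Every knockout lay above every control, and the log2 difference was 0.29 (SE 0.063, with an adjusted p from limma of 0.123; 0.00517 in the authors' deposited table). Ccnb1, for cyclin B1, was at 95.04, 109 and 102 TPM in the controls and at 124, 111 and 127 TPM in the knockouts, which is narrowly without overlap between control 2 and knockout 2. Ccnb2, for cyclin B2, was at 178, 192 and 189 TPM in the controls and at 223, 219 and 206 TPM in the knockouts, and Ccna2, for cyclin A2, spanned 87.5 to 96.9 TPM in the controls and 104 to 116 TPM in the knockouts. The log2 differences of these cyclins were 0.24 for Ccnb1, 0.21 for Ccnb2 and 0.22 for Ccna2. Foxm1, the transcription factor that promotes this programme, was at 46.3, 52.9 and 51.8 TPM in the controls and at 58.6, 54.3 and 53.9 TPM in the knockouts, a smaller log2 difference of 0.14 (SE 0.079, with an adjusted p from limma of 0.572), which was 0.085 without control 1.

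Kinases of the spindle and the machinery of mitotic exit included the largest differences of all members, those of Ube2c and Aurka. Ccne1 of the replication group came next, at 0.32. Aurka (ENSMUSG00000027496), the Aurora A kinase that matures spindle poles, was at 68.5, 67.0 and 70.3 TPM in the controls and at 92.0, 88.4 and 85.0 TPM in the knockouts. The groups lay far apart for their spread (SD 1.65 TPM in the controls and 3.51 TPM in the knockouts, n = 3), and the log2 difference of 0.36 (SE 0.063) had the smallest limma adjusted p of the set, 0.0647; over the alternative settings that p ran from 0.0388 to 0.321. Tpx2, the activator of Aurora A on the spindle, had means of 117 ± 7.39 TPM among controls and 139 ± 5.42 TPM among knockouts (SD, n = 3), and Aurkb and Birc5, which act together in the chromosomal passenger complex, differed by 0.16 and 0.21 with overlap. Ube2c (ENSMUSG00000001403), the ubiquitin-conjugating enzyme of the anaphase-promoting complex, was at 115, 124 and 108 TPM in the controls and at 166, 164 and 132 TPM in the knockouts, a log2 difference of 0.40 (SE 0.10, with an adjusted p from limma of 0.169; 0.00463 in the authors' deposited table). Cdc20, which activates that complex at anaphase, was at 152, 164 and 171 TPM in the controls and at 219.8, 195 and 186 TPM in the knockouts, a log2 difference of 0.30 (SE 0.079, with an adjusted p from limma of 0.192). In both genes knockout 3 was the lowest knockout but still above every control.

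Plk1, the Polo-like kinase of mitotic entry and exit, split the knockouts. It was at 108, 131 and 118 TPM in the controls and at 165 and 153 TPM in knockouts 1 and 2, but at 112 TPM in knockout 3, inside the control range. Without knockout 3, limma called 2 mitotic members, Aurka and Ube2c (adjusted p = 0.0390 and 0.0277), in a fit that called 243 genes in all against 78 with every embryo. Knockout 3 lay highest, on the other hand, for Mki67, the proliferation marker Ki-67 that coats mitotic chromosomes: 183, 199 and 183 TPM in the controls, 192 and 197 TPM in knockouts 1 and 2, and 239 TPM in knockout 3. The 2 groups overlapped for Mki67, and its log2 difference was 0.15 (SE 0.090, with an adjusted p from limma of 0.608; 95% interval -0.060 to 0.35), which was 0.050 without knockout 3. Top2a, the topoisomerase that untangles sister chromatids, was at 187, 197 and 197 TPM in the controls and at 221, 212 and 233 TPM in the knockouts, without overlap, and its log2 difference was 0.19 (SE 0.060, with an adjusted p from limma of 0.262; 0.0441 in the authors' deposited table).

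Checkpoint and motor genes were spread over the lower and middle parts of the mitotic range, apart from Bub1. Of the spindle checkpoint kinases, Bub1 differed by 0.23 without overlap, while Bub1b and Ttk differed by 0.087 and 0.11 with overlap. The kinetochore proteins Cenpe and Cenpf and the mitotic kinesins Kif11, Kif20a and Kif23 had log2 differences of 0.17, 0.065, 0.090, 0.11 and 0.18, and among these 5 the groups were separate only for Kif23. Nusap1, which bundles spindle microtubules, differed by 0.14 without overlap. By function, the median log2 difference was 0.35 for Ube2c and Cdc20, which work with the anaphase-promoting complex but are not its subunits. It was 0.25 for the 5 genes of Polo and Aurora kinases with their partners, and 0.22 for Cdk1, its cyclins and Foxm1. It was 0.15 for the 3 genes of chromosomes and spindle, and 0.11 each for the checkpoint and for kinetochores and motors. The differences between these subgroups were not tested.

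**Figure D3:**
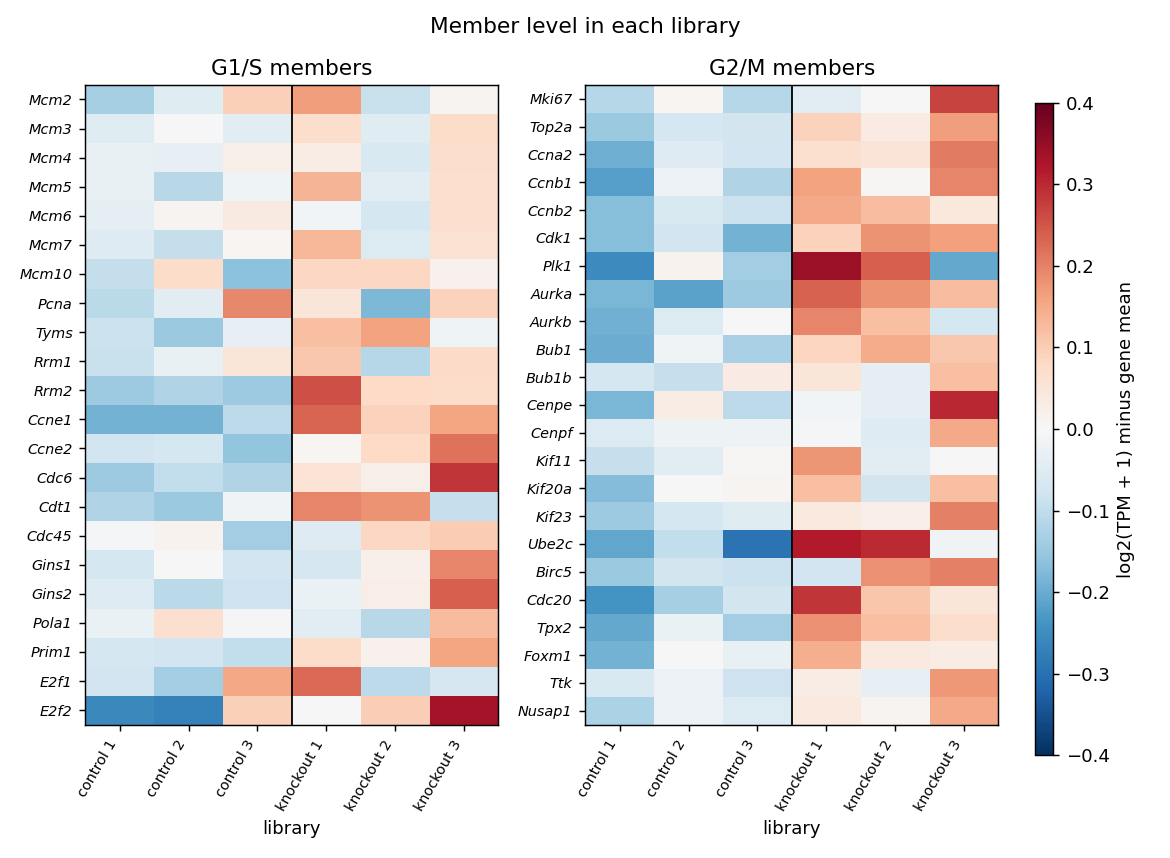
Level of every member in each library as log2(TPM + 1) minus the gene's mean over the 6 libraries (colour, red above and blue below the mean), for G1/S members (left) and G2/M members (right); the black line parts controls from knockouts. Control 1 is the lowest library for 18 of 23 mitotic genes, and knockouts 1 and 3 are the highest for 10 and 11 of them, while Plk1 and Ube2c stand low in knockout 3 against the other knockouts.

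Library by library, most mitotic members lay above or below their own means together. Averaged over the 23 genes, the distance from each gene's own mean on the log2 scale was -0.16, -0.049 and -0.085 in controls 1 to 3 and 0.12, 0.069 and 0.11 in knockouts 1 to 3. For the 22 replication genes the same averages were -0.088, -0.071 and -0.025 in controls and 0.079, 0.0032 and 0.10 in knockouts, so knockout 2 sat barely above the mean of all libraries. The lowest library of every mitotic gene was a control, 18 times control 1, and the highest was always a knockout. For replication genes the lowest library was a control for 16 of 22 and knockout 2 for the other 6, and the highest was a knockout for 21 and control 3 for Pcna. Leaving out any 1 embryo kept all 23 mitotic differences positive, with medians from 0.16 to 0.22, and 17 to 22 of the 22 replication differences positive, with medians from 0.083 to 0.13; without control 1 the mitotic median was 0.17.

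Summed over the members, mitotic transcripts took 2043, 2219 and 2155 TPM in controls 1 to 3 and 2535, 2449 and 2483 TPM in knockouts 1 to 3. The knockout mean of 2489 ± 43.6 TPM was 16.4% above the control mean of 2139 ± 89.3 TPM (SD, n = 3), and the groups did not overlap. Replication transcripts summed to 1931, 1952 and 2034 TPM in the controls and to 2167, 1991 and 2143 TPM in the knockouts, means of 1972 ± 54.5 and 2101 ± 95.4 TPM, a difference of 6.51% with knockout 2 inside the control range. The ratio of the mitotic to the replication sum was 1.06, 1.14 and 1.06 in controls and 1.17, 1.23 and 1.16 in knockouts. The median coefficient of variation of a member between embryos was 3.56% in controls and 7.61% in knockouts for replication genes, and 4.96% and 7.04% for mitotic genes. The sums are descriptions of a chosen list and carry no test.

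**Figure D4:**
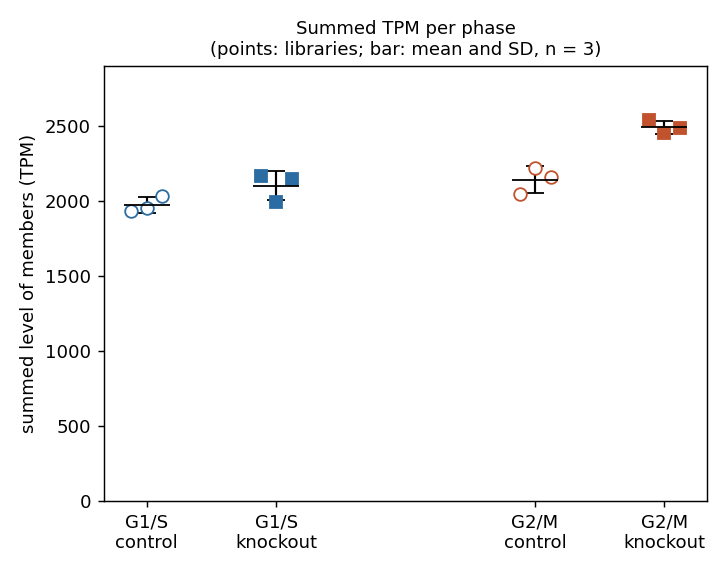
Summed TPM of the 22 G1/S members (blue) and 23 G2/M members (orange) in each library (points; open for control, filled for knockout), with mean and SD over 3 embryos; the axis starts at 0. The mitotic sums run from 2043 to 2219 in controls and from 2449 to 2535 in knockouts, and the replication sums overlap.

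Other genes of the same processes, listed separately from the members, gave values of similar size. They were measured in the same 6 libraries and listed with earlier results of these data known, so they are not separate evidence. Of 44 other replication genes, limma called 0 (9 higher and 0 lower at an unadjusted p under 0.05; 0 with limma-voom; the authors' deposited table marks 2 higher, Tk1 and Tipin), and their median log2 difference was 0.10. The 2 of highest level were the histone chaperone gene Nasp, at 230 ± 2.44 TPM in the controls and 253 ± 3.55 TPM in the knockouts (SD, n = 3), and Uhrf1, which keeps DNA methylation through replication, with a log2 difference of 0.053. Of 60 other mitotic genes, limma called 0 (19 higher and 0 lower at an unadjusted p under 0.05). The authors' deposited table marks 8 of them higher. In this list 57 genes were positive and the median was 0.17. Against these counts and those of the lists below, 5.35% of all tested genes were higher and 5.92% lower at that unadjusted p. The shares were 1.38% and 2.17% in the authors' deposited table, and 0.489% and 1.19% with limma-voom. Hmgb2, a chromatin protein gene that peaks in G2/M, was at 356, 374 and 345 TPM in the controls and at 456, 478 and 448 TPM in the knockouts, a log2 difference of 0.36 (SE 0.059, with an adjusted p from limma of 0.0511), and Cks2, a small partner of Cdk1, differed by 0.28. With limma-voom, Hmgb2 and Cdca3 were called (adjusted p = 0.0166 and 0.0234); Cdca3, a trigger of mitotic entry, is named after its values were seen.

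Regulators upstream of both phases did not share one direction. Of 12 cyclins, kinases and growth regulators of G1, limma called 0 (1 higher and 1 lower at an unadjusted p under 0.05; 0 with limma-voom, and the authors' deposited table marks 0). Their median was -0.037, and it was 0.0088 without knockout 2 and -0.067 without knockout 3. Cdk4, the cyclin D kinase, was at 632, 637 and 605 TPM in the controls and at 727, 701 and 716 TPM in the knockouts (a log2 difference of 0.19, SE 0.055, with an adjusted p from limma of 0.219), whereas Ccnd2, for cyclin D2, differed by -0.15 with overlap. Of 9 tested inhibitors of cyclin-dependent kinases and pocket proteins, limma called 0 (0 higher and 2 lower at an unadjusted p under 0.05; the authors' deposited table marks 1 lower). Their median was -0.086, and it was -0.028 without knockout 1 and -0.14 without knockout 3. Cdkn1c, the inhibitor p57, was the most abundant, at 501 ± 24.96 TPM in the controls and 551 ± 51.8 TPM in the knockouts (SD, n = 3), and Cdkn1b, for p27, differed by -0.099. Cdkn1a, for the inhibitor p21, was at 31.8, 30.3 and 34.7 TPM in the controls and at 23.5, 20.2 and 24.5 TPM in the knockouts, a log2 difference of -0.49 (SE 0.10, with an adjusted p from limma of 0.111); limma-voom called it (adjusted p = 0.0370), as does the authors' deposited table (0.00170). It is named because of these calls, after its values were seen. Rb1, for the retinoblastoma protein, was the other lower gene, with a log2 difference of -0.33 without overlap (SE 0.12, with an adjusted p from limma of 0.328). Rb1 is also named after its values were seen.

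Of 14 genes for other E2F factors and the DREAM complex, limma called 0 (2 higher and 0 lower at an unadjusted p under 0.05). With limma-voom 0 were called, and the authors' deposited table marks 0. Their median was 0.045 (0.085 without control 3 and 0.069 without knockout 1). Rbbp4 and Tfdp1, those of highest level, differed by 0.085 and 0.025. The 2 higher genes were Mybl2, for B-Myb, and E2f7, each with a log2 difference of 0.30 without overlap. Their adjusted p from limma was 0.327 and 0.407, and they are named after their values were seen. Of 16 genes for the anaphase-promoting complex and spindle checkpoint, limma called 0 (1 higher and 0 lower at an unadjusted p under 0.05; 0 with limma-voom, and the authors' deposited table marks 0), with a median of 0.035 (0.016 without control 1 and -0.014 without knockout 3), and Anapc5 and Cdc16, its most abundant genes, differed by -0.076 and -0.010. The median of this list lay near that of all genes, while Cdc20 and Ube2c, which work with the same complex, were at 0.30 and 0.40; this contrast was not tested.

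**Figure D5:**
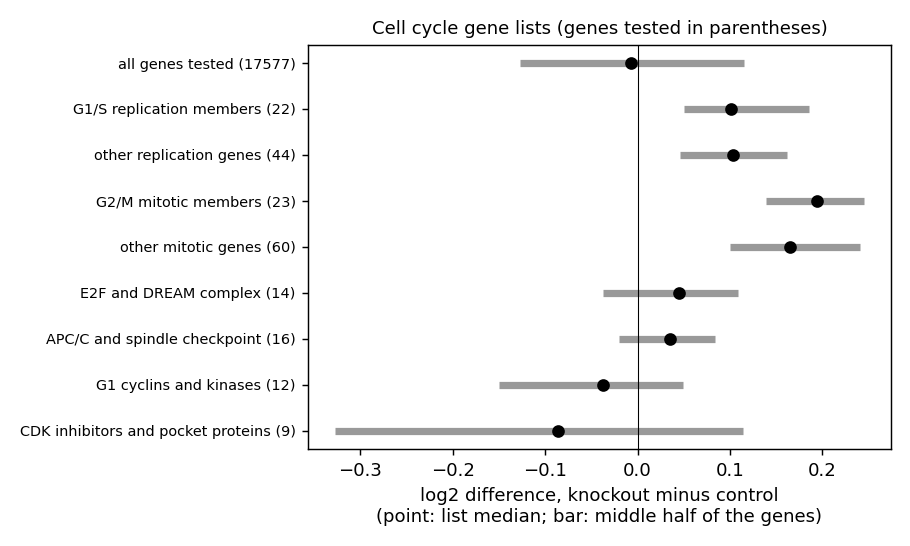
Median log2 difference, knockout minus control (points), and the range between quartiles (bars) for the member groups, 6 further cell cycle lists and all genes tested; the number of genes tested stands in parentheses. The mitotic lists have medians of 0.19 and 0.17 and the replication lists of 0.10 each, against -0.0075 for all genes and -0.086 for kinase inhibitors and pocket proteins.

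Facts of the libraries are given beside these results, and some of them differ between the groups while others overlap. Recovered reads summed to between 28687415 and 33574278 per library. Markers of duct and tubule epithelium summed to 334 to 368 TPM among controls and 299 to 335 TPM among knockouts, and those of mesenchyme to 1519 to 1705 and 1620 to 1727 TPM, so both tissues of the sample were present in all libraries. Of these 2 lists limma called the duct and tubule marker Lhx1 (log2 difference -1.32, adjusted p = 0.0123) and the mesenchymal marker Pdgfrb (-0.60, adjusted p = 0.0137) lower and the mesenchymal marker Tcf21 (0.62, adjusted p = 0.0197) higher in knockouts. None of the marker genes measured was listed at 0. Of gonadal somatic markers, 3 of 7 tested (Nr5a1, Gata4 and Inhbb) were called higher in knockouts. The same test called 0.131% of all genes higher and 0.313% lower. The gonadal list summed to between 84.9 and 100.1 TPM in the controls and to 219, 181 and 121 TPM in knockouts 1 to 3. Within that sum, Amh alone was at 67.8, 44.7 and 9.58 TPM in knockouts 1 to 3, and Gata4 at 39.6, 41.2 and 33.2 TPM. The gonadal markers Sox9 and Cyp26b1 had log2 differences of -0.059 and -0.032. The mean mitotic distances of knockouts 1 to 3 were 0.12, 0.069 and 0.11, and a relation to the gonadal markers was not tested. Endothelial markers summed to 445 to 481 TPM in the controls and 376 to 416 TPM in the knockouts (limma called 0 of 8, limma-voom 1 lower, and 3 were lower at an unadjusted p under 0.05). All 8 had a negative log2 difference, and the authors' deposited table marks 2 of them lower, Kdr and Cdh5. That table marks 1.38% of all genes higher and 2.17% lower. Germ cell markers summed to 25.1 to 56.1 and 27.8 to 80.7 TPM, macrophage markers to 103 to 149 and 103 to 127 TPM, neural crest markers to 17.1 to 20.7 and 18.1 to 33.5 TPM, and erythroid markers to 13278 to 17617 and 16571 to 18503 TPM. In these 4 lists limma and limma-voom called 0 genes, and 0, 0, 1 and 2 of them were higher at an unadjusted p under 0.05. Of these lists the authors' deposited table marks 1 gene, the neural crest marker Sox10, which is higher. With the erythroid genes removed and the rest rescaled, the mitotic median was 0.20; otherwise the part of these cell types in the result was not tested.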

How the data were processed

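Libraries of poly(A) RNA from the mesonephros of 6 male E12.5 embryos gave paired-end reads 150 bases long, per the labels' protocols. The submitters' processing notes name the build GRCm39 and DESeq2; the sources used here do not name the aligner, counting tool, strand setting or gene filter. The authors deposited 1 TPM column per embryo, per the file headers, and in the same table a log2 fold change, a p-value and an adjusted p-value of knockout over control (the adjusted p is empty for 1175 genes); these are quoted only as the authors' deposited table. Samples were grouped by title. The members and lists were chosen with earlier results of these data known.

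limma 3.58.1 (R 4.3.3, mean-variance trend, two-sided) was fitted on log2(TPM + 1) with genotype as the only term, on the 17577 genes that reached 1 TPM in 3 or more of the 6 libraries, with Benjamini-Hochberg adjustment over all of them and a threshold of 0.05. That scale understates the change of low genes. Intervals are limma's 95% ones, unadjusted. Every library was given a value for members past the test, the 3 of highest level and the 3 of largest difference per phase, and 10 fixed genes; values of other members, such as Plk1 and Tpx2, were added after they were seen. From each other list, the 2 genes of highest level were named where none passed. Cdca3, Cdkn1a, Rb1, Mybl2 and E2f7 were added after their values were seen. Whole reads were recovered from ratios of TPM between libraries (20033 of 20033 genes whole within 0.02 reads). A common factor per gene is lost and matches for the most abundant genes may be chance ones, so totals are approximate. They entered limma-voom with median-ratio library sizes. Alternatives were median-ratio and upper-quartile scaling, no filter, a pseudocount of 0.1, removal of erythroid genes, a replicate block, limma-voom, and leaving out each library. The limma step was also run on simulated reads with planted changes larger than those of any member, so that run does not cover changes of member size.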

Additional observations from a re-analysis of the deposited data

How the results depend on the processing

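Over the settings the median log2 difference ranged from 0.16 to 0.22 for mitotic and from 0.083 to 0.13 for replication members. All 23 mitotic members stayed positive under the 13 alternative settings, and the replication count ranged from 17 to 22 of 22. The count of all genes called changed from 78 to 17 with a replicate block and to 296 with limma-voom on recovered reads, and ran from 13 to 243 when 1 library was left out. Mouse numbers pair nothing that the labels state, and the deviations of same-numbered embryos had correlations of -0.064, 0.050 and -0.051; the block changed no call among members. Calls of mitotic members were 0 in the main model, 1 with limma-voom (Aurka) and from 0 to 2 with 1 library left out (2 without knockout 3). Other mitotic genes called were 1 with erythroid genes removed (Hmgb2), 2 with limma-voom and 0 to 1 with 1 library left out; limma-voom called 1 kinase inhibitor (Cdkn1a). Of 247 values of named members under these settings, 10 changed sign, all with differences near 0. Mcm6 turned from -0.0088 to 0.00011 with median-ratio scaling, 0.00014 with limma-voom, 0.0074 without control 3 and 0.024 without knockout 2. Pcna turned to 0.063 without control 3 and 0.057 without knockout 2, E2f1 to -0.021 without control 2 and -0.068 without knockout 1, Mcm2 to -0.010 without knockout 1 and Mcm4 to -0.0033 without knockout 3. The cause was not tested. With 1 library left out, these log2 differences ranged from -0.010 to 0.12 for Mcm2, from -0.0033 to 0.062 for Mcm4, from -0.045 to 0.024 for Mcm6, from -0.086 to 0.063 for Pcna and from -0.068 to 0.12 for E2f1. Of the other named members, Mki67 went from 0.15 to 0.050 without knockout 3, Foxm1 from 0.14 to 0.085 without control 1 and Mcm3 from 0.063 to 0.10 without knockout 2, the moves of over 1.5 times among them. With 3 embryos a group, the median SE of a member was 0.080 on the log2 scale, so a missing call does not show equal levels.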
